A study of Sorghum bicolor with 14 samples.

Results

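Sucrose, the sugar stored in the stem of sweet sorghum, is cleaved by invertases and by sucrose synthases. The 4 genes described here are a vacuolar invertase (VIN1, Sobic.004G004800) and 3 sucrose synthases (Sobic.010G072300, Sobic.001G344500 and Sobic.001G378300). They were picked by identifier, as genes for enzymes that cleave sucrose, from the 32042 loci named in both tables of the deposited file, and all 4 were found in both. RNA had been sequenced from the middle stem internode of the Sorghum bicolor variety ICSV12012 in 14 libraries, 2 for each of 7 groups. The 4 stage groups (floral initiation, booting, milky stage, soft dough) came from regularly watered plants in a soil bed given nitrogen fertilizer. The 3 drought groups came from plants kept 1 to a pot and left without water after the flag leaf had appeared. They were taken at booting, once soil moisture read about 13% (D1), 7% (D2) or 2% (D3). The labels name no watered group in pots, and when a drought group is set against booting, drought cannot be told apart from growth in a pot.

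An invertase splits sucrose irreversibly into glucose and fructose, and the vacuolar form acts at acid pH inside the vacuole, where stem parenchyma holds its sugar. A sucrose synthase works mainly in the cytosol and cleaves sucrose with UDP, in a reaction that can run both ways, to fructose and UDP-glucose, which feeds cell wall and starch synthesis. In sugar-storing grasses, low vacuolar invertase activity in maturing internodes is known to go along with sucrose accumulation, while sucrose synthase is known as an enzyme of growing and filling tissues. These roles and the enzyme names come from general knowledge of the species and of grasses. The file gives identifiers alone, and the names were not checked against an annotation.

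The file holds 1 value per locus and group, in FPKM, that is fragments scaled to transcript length and library size. No value per library was given. The differences below therefore have no replicate check, and no standard deviation, n or p belongs to any of them. Sequencing depth is unknown, since FPKM keep no read totals. Differences are given as log2(FPKM + 1) of the first group minus that of the second, and a difference of at least 1 on that scale is called 2-fold. The offset of 1 makes differences of low genes smaller than their FPKM ratios. The stages and the drought groups stand in separate tables. The tissue label could not be checked against marker genes, because the file pairs no identifier with a product.

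Each of the 4 genes was a locus of its own, placed identically in the development and the drought table, and no other locus overlapped it. VIN1 lies on chromosome 4 from 418238 to 423162. Sobic.010G072300 lies on chromosome 10 from 5859073 to 5867276. The other two synthases are both on chromosome 1, Sobic.001G344500 from 63320871 to 63327577 and Sobic.001G378300 from 66642502 to 66650446, with 3314925 bases between them. The sources used here do not give the build behind these coordinates.

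FPKM is per length, so the levels of the genes can be set side by side within a group. Sobic.010G072300 was the highest of the 4 genes in each of the 7 groups and VIN1 the lowest. Between them the order of the remaining pair turned between the tables. Sobic.001G344500 stood above Sobic.001G378300 in all 4 stages, by 45.3 times at floral initiation and 9.76 times at soft dough. In all 3 drought groups it stood below it, by 1.71 times in D1, 1.13 times in D2 and 5.04 times in D3. With no spread between libraries, it cannot be said whether neighbours as close as this pair in D2 differed, nor Sobic.010G072300 and Sobic.001G344500 at the milky stage, which were 1.15 times apart.

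**Figure D1:**
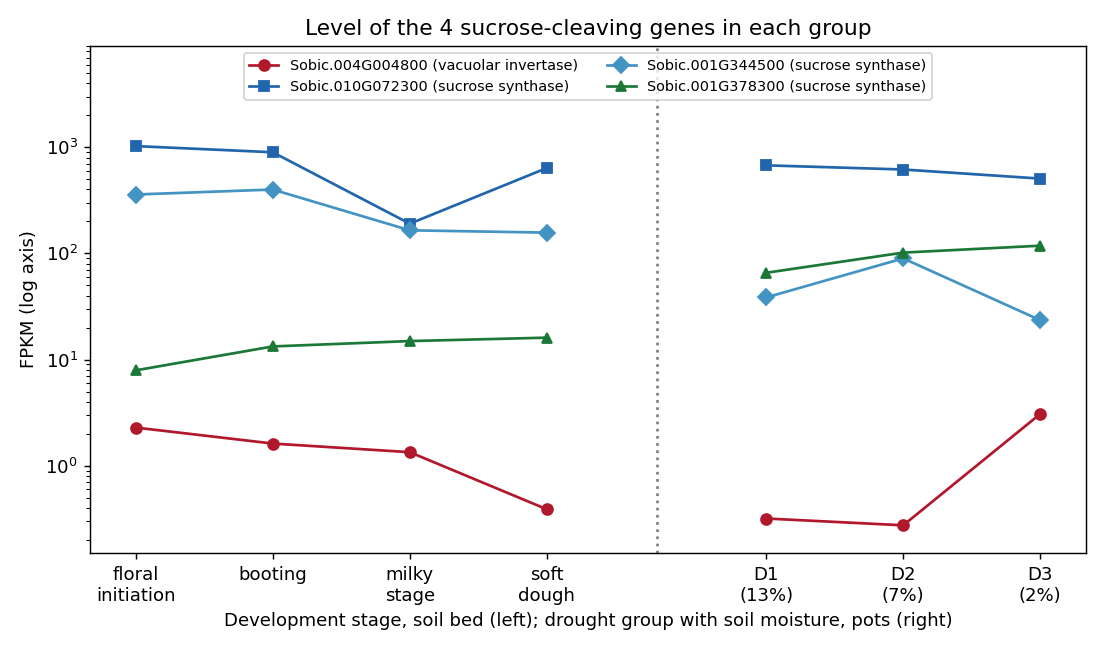
FPKM of the 4 genes on a log axis, with the 4 stages at the left and the 3 drought groups at the right of the dotted line. Each point is the authors' single value for a group of 2 libraries. The squares of Sobic.010G072300 dip to 191 FPKM at the milky stage, and the green triangles of Sobic.001G378300 lie above the diamonds of Sobic.001G344500 in the drought groups only.

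VIN1, the vacuolar invertase, had low values throughout and its lowest stage at soft dough. It was at 2.29 FPKM at floral initiation, 1.62 at booting, 1.34 at the milky stage and 0.389 at soft dough. Floral initiation was the highest stage, 5.88 times above soft dough. As deposited, each stage was lower than the one before, which applied to 5.64% of the 18367 loci compared. The step from booting to the milky stage (-0.16) turned with quantile normalization (0.08) and with rescaling to equal sums (0.02), so the direction of that step depended on the scaling. The difference between soft dough and floral initiation was -1.24, past 2-fold, but -0.44 with an offset of 5 and -0.98 with quantile normalization. No single stage step reached 2-fold on this scale. The step from the milky stage to soft dough was 3.45-fold in FPKM and -0.75 in log2(FPKM + 1), or -1.56 with an offset of 0.1.

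In the drought table VIN1 was at 0.318 FPKM in D1, 0.275 in D2 and 3.08 in D3. As deposited, D1 and D2 were thus close in value and below all 4 stages, and D3 was above all 4. This order crosses the separate tables and sets pots against a soil bed. With no spread between libraries, it cannot be said whether D1 differed from soft dough (0.389) or D3 from floral initiation (2.29). The D3 value was 11.2 times that of D2 and 9.67 times that of D1, with log2 differences of 1.68 and 1.63. Of the 17229 loci compared, 1.56% had a higher difference between D3 and D2 than VIN1. Being at least 2-fold above both other drought groups in D3 applied to 3.27% of loci. With an offset of 5 neither difference reached 2-fold (0.61 and 0.60). Counting from the lowest value, VIN1 lay above 42.6% of the named loci in D2 and above 59.4% in D3. In the genome its nearest named locus, Sobic.004G004900, lies 86 bases away in the drought table and 92 in the development table, and whether the 2 loci share fragments was not tested. That neighbour was at 9.23 FPKM in D1, 9.31 in D2 and 10.4 in D3, a near-level course beside that of VIN1. It was at 6.21, 7.95, 9.98 and 8.65 FPKM from floral initiation to soft dough, and its lowest stage was floral initiation, where VIN1 was highest.

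Sobic.010G072300 was by level the main sucrose synthase of the 3. It was at 1025 FPKM at floral initiation, 897 at booting, 191 at the milky stage and 637 at soft dough. The size of the step from floral initiation to booting depended on the scaling. It was -0.19 as deposited, -0.9 with quantile normalization and -0.65 with rescaling to equal sums. The milky stage stood apart as the lowest, and the values on both sides of it were more than 3 times higher. At floral initiation the gene ranked 53 from the top among 32752 named loci, and at the milky stage 717. The milky stage was 4.71 times below booting (-2.23) and soft dough 3.35 times above the milky stage (1.74). Differences below that of this gene were found for 3.60% of loci between booting and the milky stage, and differences above it for 2.11% between the milky stage and soft dough. Being at least 2-fold below all 3 other stages at the milky stage applied to 3.51% of loci. Both differences passed 2-fold with each offset and scaling tried. In bulk tissue, fewer cells of a type and less RNA per cell cannot be told apart as a source of such a difference.

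Across the drying series the same gene stayed at rank 97 to 192 among 32705 named loci. It was at 675 FPKM in D1, 617 in D2 and 507 in D3, each lower than the one before. The highest value was 1.33 times the lowest. Its range over the 3 drought groups was 0.41 on the log2 scale, near the median range of 0.45 over all loci compared, whereas its range over the 4 stages was 2.42 against a median of 1.18. Lower values at both drying steps, of any size, were found for 17.1% of loci.

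Sobic.001G344500, the second synthase in level during development, was high at the early stages and lower from the milky stage on. It was at 359 FPKM at floral initiation, 400 at booting, 165 at the milky stage and 157 at soft dough. Floral initiation and booting lay above the milky stage and soft dough. Which of the early pair was higher depended on the scaling, with a difference of 0.16 for booting minus floral initiation as deposited, -0.66 with quantile normalization and -0.30 with rescaling to equal sums. The milky stage was 2.42 times below booting (-1.27), where 15.7% of all loci compared were at least 2-fold lower, or 11.7% after rescaling to equal sums. Unlike Sobic.010G072300, it had no higher value at soft dough than at the milky stage, with a difference of -0.07 (0.07 with quantile normalization) against 1.74. The step into the milky stage fell just short of 2-fold with quantile normalization (-0.99) and with rescaling to equal sums (-0.97).

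In the drought groups Sobic.001G344500 was at 38.5 FPKM in D1, 89.7 in D2 and 23.5 in D3. D2 was the high group, and all 3 were below the lowest stage. D2 was 2.33 times above D1 (1.20) and 3.82 times above D3. Standing at least 2-fold above both other drought groups in D2 applied to 1.31% of loci. The difference between D3 and D2 was -1.89, and 0.847% of loci had a lower one. Its range over the drought groups, 1.89, was wider than that of 95.9% of loci. The named locus above it on the chromosome, Sobic.001G344600, 7790 bases away, had another course in the drought groups, at 64.6 FPKM in D1, 8.88 in D2 and 8.07 in D3. Over the stages that neighbour was at 110.5, 115.9, 65.5 and 34.4 FPKM from floral initiation to soft dough. Like Sobic.001G344500, it was higher at floral initiation and booting than at the later stages.

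Sobic.001G378300 was the lowest of the 3 synthases in every stage. It was at 7.91 FPKM at floral initiation, 13.3 at booting, 14.9 at the milky stage and 16.1 at soft dough. Each stage was higher than the one before, a course shared by 5.08% of loci, and the milky stage brought no dip. The whole distance from floral initiation to soft dough was 2.03-fold in FPKM, just under 2-fold with the offset (0.94).

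The same gene was at 65.7 FPKM in D1, 102 in D2 and 118 in D3. The lowest of these was 4.09 times its highest stage value. All 3 drought groups were at least 2-fold above all 4 stages, which applied to 2.13% of the 18492 loci that were named in both tables and reached 1 FPKM in some group. Higher values at both drying steps, of any size, were found for 22.5% of loci, so the direction of its course within the drying series was a common one. Neither of its drying steps was 2-fold, with differences of 0.62 and 0.22. The step from D2 to D3 was 0.01 with quantile normalization and 0.04 with rescaling to equal sums, so D2 and D3 were then nearly level.

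Against booting, the stage of harvest of the drought groups, the 2 chromosome 1 synthases stood on opposite sides. These comparisons share the booting value, cross separately quantified tables and set pots against a soil bed. Sobic.001G378300 was higher by 2.22 in D1, 2.85 in D2 and 3.06 in D3 on the log2 scale, or 4.94, 7.65 and 8.90 times in FPKM. At least 2-fold higher were 12.8% of all loci in D1, 13.4% in D2 and 15.5% in D3. Sobic.001G344500 was lower, with differences of -3.34 in D1, -2.14 in D2 and -4.03 in D3, or 10.4, 4.45 and 17.0 times in FPKM. At least 2-fold lower were 13.4% of loci in D1, 12.7% in D2 and 14.3% in D3. After rescaling to equal sums these shares were 18.3% higher and 9.77% lower in D1, 20.0% and 8.79% in D2, and 17.8% and 11.8% in D3, and both genes stayed past 2-fold on the same sides. Further out than Sobic.001G378300 lay 1.56% of loci in D1, 0.654% in D2 and 1.13% in D3, and further out than Sobic.001G344500 lay 0.925%, 2.88% and 0.519%. Sobic.010G072300 was below booting in all 3 groups by less than 2-fold (-0.41, -0.54 and -0.82), but quantile normalization turned its sign in D1 (0.28) and D2 (0.17). VIN1 was 5.08 times below booting in D1 (-0.99), 5.89 times below in D2 (-1.04) and 1.90 times above in D3 (0.64). The call in D2 ended with an offset of 5 (-0.33), quantile normalization (-0.98) and rescaling to equal sums (-0.87), while D1 passed 2-fold with an offset of 0.1 (-2.04).

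**Figure D2:**
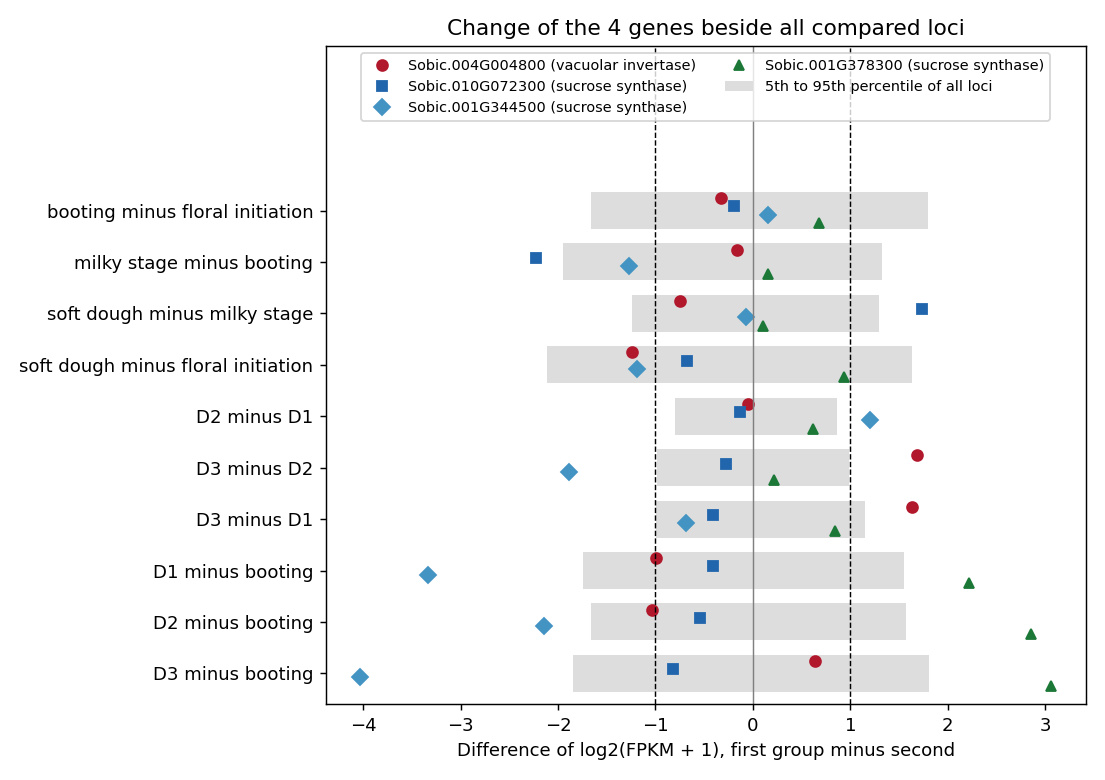
Difference of log2(FPKM + 1) of the 4 genes in each of 10 comparisons, first group minus second. Grey bars run from the 5th to the 95th percentile of all loci compared, and dashed lines mark 2-fold. Beyond the grey bars lie Sobic.010G072300 on both sides of the milky stage, VIN1 (red) in D3 against D1 and D2, and both chromosome 1 synthases in every drought group against booting, while Sobic.001G344500 also passes them in the drying steps D2 minus D1 and D3 minus D2.

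Over the 10 comparisons, Sobic.001G344500 differed at least 2-fold in 7, VIN1 in 4, Sobic.001G378300 in 3 and Sobic.010G072300 in 2. The comparisons reuse the same groups and are not separate, and all 3 of Sobic.001G378300 were against booting. How common such counts are over all loci was not worked out. The count of VIN1 was 0 with an offset of 5, 6 with an offset of 0.1, 2 with quantile normalization and 3 with rescaling to equal sums, whereas that of each synthase moved by at most 1. From floral initiation to booting none of the 4 genes differed 2-fold, where 29.3% of all loci did, 15.8% higher and 13.5% lower, or 8.84% and 23.5% after rescaling to equal sums. From booting to the milky stage 2 of 4 did, both lower, where 15.7% of loci were lower and 9.27% higher. From the milky stage to soft dough 1 of 4 did, higher, where 9.28% of loci were higher and 8.13% lower. Between floral initiation and soft dough 2 of 4 did, VIN1 and Sobic.001G344500, both lower, where 16.8% of loci were lower and 13.7% higher. From D1 to D2 it was 1 of 4, higher, where 3.67% of loci were higher and 3.13% lower. From D2 to D3 it was 2 of 4, VIN1 higher and Sobic.001G344500 lower, where 4.91% of loci were higher and 4.86% lower, or 3.73% and 6.38% after rescaling to equal sums. From D1 to D3 it was VIN1 alone, higher, where 6.37% of loci were higher and 4.91% lower.

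The make-up of the transcripts of these 3 synthases can be given as shares of their summed FPKM, which a common scaling factor per group cannot alter. Any other sucrose synthase loci could not be listed and are not in the sum. Unlike the shares, the sum itself depends on the scaling, and it is given as deposited only. Over all named loci, summed FPKM ran from 653771 at floral initiation to 900386 at booting. The sum of the 3 synthases was 1391 FPKM at floral initiation, 1309.9 at booting, 370.4 at the milky stage and 810.4 at soft dough. It was 3.54 times lower at the milky stage than at booting and 2.19 times lower than at soft dough. In D1, D2 and D3 the sum was 779.4, 808.4 and 648.3 FPKM, so that the highest was 1.25 times the lowest. Sobic.010G072300 supplied 73.7% of it at floral initiation, 68.5% at booting, 51.4% at the milky stage and 78.7% at soft dough, then 86.6% in D1, 76.3% in D2 and 78.1% in D3. The milky stage was the group with the most even split, where Sobic.001G344500 supplied 44.5%. That gene supplied 30.5% at booting and 4.93% in D1, 11.1% in D2 and 3.62% in D3. Sobic.001G378300 instead had larger shares in the drought groups than at booting, with 1.01% at booting, 8.43% in D1, 12.6% in D2 and 18.2% in D3. Its share in the stages was between 0.569% and 4.03%. Both chromosome 1 synthases had a larger share in D2 than in D1.

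**Figure D3:**
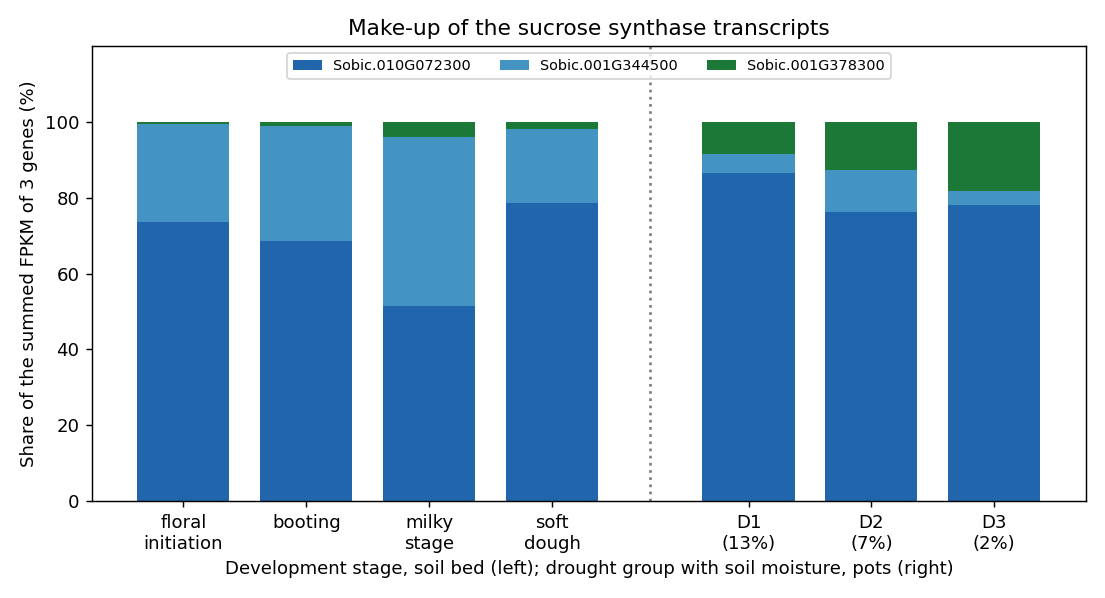
Share of each of the 3 sucrose synthases in their summed FPKM, per group, as stacked bars of 1 value per group. Sobic.001G344500 (light blue) takes 19.4% to 44.5% in the stages and 3.62% to 11.1% in the drought groups, and Sobic.001G378300 (green) takes 8.43% to 18.2% in the drought groups.

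The summed FPKM of these 3 synthases exceeded that of VIN1, the only invertase included, in every group, but by very different factors. It was 608.2 times as high at floral initiation, 809.9 at booting, 276.2 at the milky stage and 2085 at soft dough. In the drought groups it was 2449 times as high in D1, 2943 in D2 and 210.7 in D3. D3 thus had the smallest ratio of the 7 groups and D2 the largest. The order rests on VIN1 values that were under 1 FPKM in soft dough, D1 and D2, where the depth behind them is unknown.

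The 4 genes did not share a course over the 7 groups. After each table was centred on its own mean, the root-mean-square difference of log2(FPKM + 1) between members was smallest for Sobic.010G072300 and Sobic.001G344500 (0.68) and largest for VIN1 and Sobic.001G344500 (1.01). That of VIN1 and Sobic.001G378300 was nearly as small (0.71). Yet as deposited VIN1 was lower and Sobic.001G378300 higher at every stage step, so a small value need not mean a shared direction. Among 14996 other single-gene loci, the course nearest to VIN1 was that of Sobic.010G251400 (0.114), which was at 7.45, 6.27, 4.14 and 2.23 FPKM over the stages and at 2.21, 2.35 and 10.5 in D1, D2 and D3. The next was Sobic.004G231501 (0.134), at 5.24 FPKM in D3 against 1.12 in D2. Both had their lowest stage at soft dough and their highest drought group at D3, as VIN1 did. Being chosen as nearest in these same values, they lend no separate support to the course of VIN1.

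Nearest to Sobic.010G072300 were Sobic.001G456200 (0.086) and Sobic.004G075800 (0.114). They were at 0.793 and 0.321 FPKM at the milky stage against 7.29 and 4.32 at booting, a dip at far lower levels than that of the synthase. Nearest to Sobic.001G344500 were Sobic.006G213100 (0.170), which was at 18.4, 39.5 and 10.2 FPKM in D1, D2 and D3, and Sobic.002G322300 (0.181), at 22.2, 39.7 and 13.1. Sobic.006G213100 was also below its stage values in the drought groups, whereas Sobic.002G322300 had its highest value in D2. Nearest to Sobic.001G378300 were Sobic.001G291300 (0.088), at 2.05 FPKM at booting and 52.7, 68.0 and 89.2 in D1, D2 and D3, and Sobic.004G141500 (0.094), which stayed between 0.935 and 3.43 FPKM in all groups. Because the tables were centred apart, this measure does not use the level difference between them. Features shared with the members follow from the choice of these loci by likeness. The file does not say what these loci encode.

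**Figure D4:**
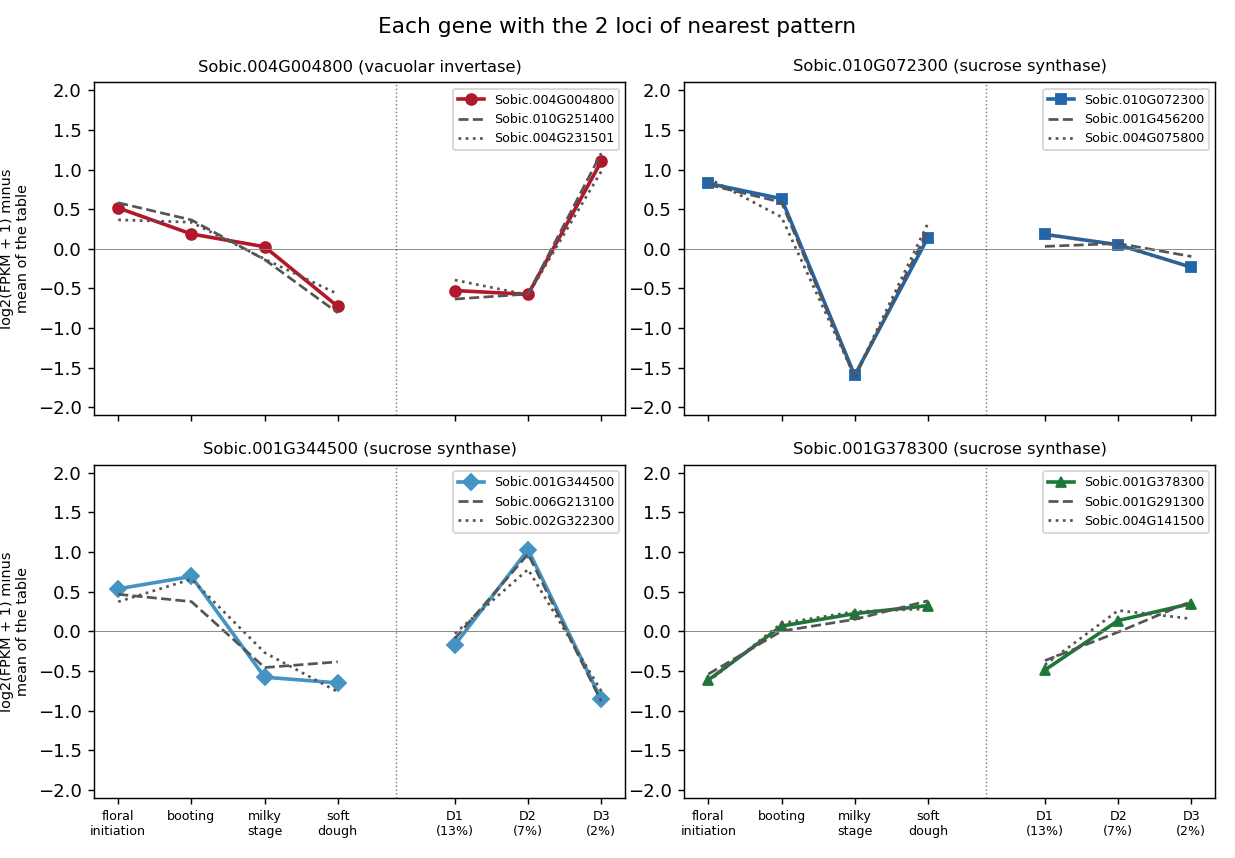
Log2(FPKM + 1) of each gene (coloured) and of the 2 loci nearest in course (grey dashed and dotted), after the mean of the 4 stages or of the 3 drought groups was taken off. The dip of Sobic.010G072300 at the milky stage, the D2 peak of Sobic.001G344500 and the D3 value of VIN1 recur in the grey lines, whose root-mean-square differences are between 0.086 and 0.181. The grey loci were chosen for this likeness, so the recurrence follows from the choice.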

How the data were processed

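RNA of 14 libraries was measured in 7 groups, taken from the stage or condition in the labels. The deposited values are FPKM, 1 per locus and group per the file headers. The build, the annotation and the way in which both libraries of a group became 1 value were not stated in any source used here. HISAT2 2.0.5, Bowtie2 2.2.9, cutadapt 1.8.1 and Cuffdiff are named in the submitters' processing notes. RNA was total RNA in stranded libraries, per the labels' protocols. FPKM keep no depth, so no interval is given.

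Of 34755 development loci, 2003 had no name and were left out, and 21 repeated entries of 32726 in the drought table were used once. Columns of other samples numbered 0. Loci were compared if they reached 1 FPKM in some group of the table (in any of the 7 groups for comparisons across tables, over loci named in both). The limma tests planned in case of library values could not be run, and no test was made. The value compared is the difference of log2(FPKM + 1), computed with pandas 2.3.3 in Python 3.11.15, and the counting was checked on simulated data. The RefSeq table (NCBIv3) matched 0 of 34129 identifiers, so lists of other sucrose genes and of tissue markers, planned by product name, could not be formed. Sequences were not used here. The rule for named genes took the 4 members and, for each, the 2 loci of a single gene with the lowest root-mean-square difference, not at 0 in any group and at 1 FPKM or more in both tables. The adjacent loci Sobic.004G004900 and Sobic.001G344600 were named after their values were seen. Members and lists were chosen with earlier results of these data known. Alternatives were other offsets, minimums and scalings.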

Additional observations from a re-analysis of the deposited data

How the results depend on the processing

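Of 40 member differences (4 genes, 10 comparisons) under up to 7 alternatives, 250 of 270 values kept their direction and side of 2-fold. Among these, the 40 values with no minimum and the 30 with a minimum of 5 FPKM could not change. A minimum alters only which loci are compared, and VIN1 does not reach 5 FPKM. Of the alternatives that could move a value, median-of-ratios scaling kept direction and side for all 40. With an offset of 0.1, VIN1 passed 2-fold for soft dough minus milky stage (-1.56) and D1 minus booting (-2.04), and Sobic.001G378300 for soft dough minus floral initiation (1.01). With an offset of 5, VIN1 no longer did so for soft dough minus floral initiation (-0.44), D3 minus D2 (0.61), D3 minus D1 (0.60) and D2 minus booting (-0.33), since a larger offset shrinks low values. Quantile normalization took VIN1 below 2-fold for soft dough minus floral initiation and D2 minus booting (both -0.98) and Sobic.001G344500 for milky stage minus booting (-0.99), and took Sobic.001G378300 past it for soft dough minus floral initiation (1.03). It turned the sign of differences under 2-fold for Sobic.001G344500 at booting minus floral initiation (-0.66) and soft dough minus milky stage (0.07), for VIN1 at milky stage minus booting (0.08), and for Sobic.010G072300 at D1 minus booting (0.28) and D2 minus booting (0.17). Rescaling to equal sums, chosen after seeing the data, since sums over named loci ran from 653771 to 900386 FPKM, turned Sobic.001G344500 at booting minus floral initiation (-0.30) and VIN1 at milky stage minus booting (0.02), and left Sobic.001G344500 at milky stage minus booting (-0.97) and VIN1 at D2 minus booting (-0.87) under 2-fold. It moved the median of all loci to -0.36 for booting minus floral initiation, 0.20 for milky stage minus booting, -0.11 for D3 minus D2 and 0.23, 0.28 and 0.16 for D1, D2 and D3 minus booting. Beyond these built-in effects the cause was not tested. Counts of all loci past 2-fold with an offset of 5 were 3064, 2319, 1581 and 3134 for the 4 stage comparisons, 445, 720 and 884 for D2 minus D1, D3 minus D2 and D3 minus D1, and 2562, 2536 and 3073 for D1, D2 and D3 minus booting. With an offset of 0.1 they were 1909 for D2 minus D1 and 2571 for D3 minus D2. The synthase shares moved by at most 2.30 percentage points, with quantile normalization. No paired analysis was possible because each group has a single deposited value, and for that reason no library could be left out. Counts over the list of other sucrose genes were not run. Depth is unknown and limits VIN1 most.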
